A study of Mus musculus with 18 samples.

Results

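Endothelial cells line every blood vessel, and 31 genes known from them were followed through mouse retinal pigment epithelium (RPE) libraries. The 31 were taken by name, as every row whose gene name is one of the list in both deposited tables, out of 55333 named rows for the C57BL/6 table, here called the first, and 55386 for the WT129 table, the second. They fall into 7 groups by role: junction and adhesion proteins, VEGF receptors, angiopoietin receptors with a partner phosphatase, transcription factors, surface glycoproteins with their ligands, peptide receptors and signalling proteins, and proteins of capillary specialisation or secretion. Every one of the 31 was found in both tables, whose normalized counts are the authors' own values.

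The choroid is the vascular bed behind the RPE, and its capillary layer, the choriocapillaris, has fenestrated walls through which the outer retina is supplied. RPE cells secrete VEGF towards these capillaries, and the VEGF receptors, the angiopoietin receptors and the ETS and SOX transcription factors maintain endothelial identity in vessels of many tissues. Retinal capillaries differ from choroidal ones in that they form a tight barrier, carry specific transporters and lack fenestrae. The RPE itself is an epithelium, and most of these genes are known from vessels rather than from RPE cells. In such bulk tissue, fewer endothelial cells and less RNA per endothelial cell cannot be told apart.

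Poly(A) RNA was sequenced from RPE used directly after removal, with no treatment, of mice at postnatal day 25, 1 h after the lights came on, which made 18 libraries of 5 groups. The first table holds 3 libraries labelled Mertk-/-V2Tyro3-/-V2, with alleles named V2 of the receptor tyrosine kinase genes Mertk and Tyro3, 3 libraries of Tyro3-/-V1, with an allele of Tyro3 named V1, and 6 of C57BL/6, the unmutated strain. The second table, normalized separately, holds 3 libraries of Itgb5-/-, which lacks an integrin beta chain used in outer segment uptake, and 3 of WT129, the wild type set beside it. What V1, V2 and the strain of WT129 stand for is not spelled out in the labels. The bracketed names of C57BL/6 replicates 1 to 3 and of both mutant groups in the first table carry the number 23, and those of C57BL/6 replicates 4 to 6 do not. The C57BL/6 libraries therefore form 2 control sets, and each mutant group was set against replicates 1 to 3, which carry the same mark. Whatever else differs between the sets cannot be told apart from the mark.

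Promoters are shown for the VEGF receptors Flt1 and Kdr, the angiopoietin receptor Tek and its partner Tie1. These receptors take part in the endothelial response to VEGF and angiopoietins. Further on, Flt1, Kdr and Tek are given by library and Tie1 by its fold changes. The promoters run from 250 bases before to 50 bases after the start in RefSeq on GRCm38.p6, 5′ to 3′ on the gene's strand. The ETS motif AGGAAG, 1 of several forms, or its reverse complement CTTCCT is in capitals. Flt1 lies at chr5:147725962-147726261 on the minus strand, Kdr at chr5:75978406-75978705 on the minus strand, Tie1 at chr4:118489800-118490099 on the minus strand and Tek at chr4:94739039-94739338 on the plus strand.
Flt1: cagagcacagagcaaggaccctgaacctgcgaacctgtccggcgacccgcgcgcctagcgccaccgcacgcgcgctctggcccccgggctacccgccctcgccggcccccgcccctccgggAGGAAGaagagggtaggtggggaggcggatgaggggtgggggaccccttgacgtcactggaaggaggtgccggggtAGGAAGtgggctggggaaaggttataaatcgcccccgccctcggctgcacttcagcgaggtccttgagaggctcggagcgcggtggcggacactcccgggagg
Kdr: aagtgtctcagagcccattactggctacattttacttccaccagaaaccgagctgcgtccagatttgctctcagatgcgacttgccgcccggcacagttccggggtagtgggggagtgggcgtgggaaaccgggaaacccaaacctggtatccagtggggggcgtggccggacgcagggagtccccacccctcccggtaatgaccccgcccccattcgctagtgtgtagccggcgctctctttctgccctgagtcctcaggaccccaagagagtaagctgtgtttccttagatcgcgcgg
Tie1: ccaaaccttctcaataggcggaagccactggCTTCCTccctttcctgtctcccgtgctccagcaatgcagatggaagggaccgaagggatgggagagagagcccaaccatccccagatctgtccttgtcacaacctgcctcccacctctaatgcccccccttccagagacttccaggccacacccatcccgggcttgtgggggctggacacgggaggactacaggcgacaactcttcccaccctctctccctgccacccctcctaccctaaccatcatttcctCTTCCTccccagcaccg
Tek: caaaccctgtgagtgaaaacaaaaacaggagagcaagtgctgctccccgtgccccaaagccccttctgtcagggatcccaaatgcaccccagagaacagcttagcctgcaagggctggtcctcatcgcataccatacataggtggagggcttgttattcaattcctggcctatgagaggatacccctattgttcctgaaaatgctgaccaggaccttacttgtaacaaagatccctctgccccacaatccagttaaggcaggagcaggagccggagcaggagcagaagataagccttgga
Flt1 and Tie1 hold 2 such exact matches each in this window, and Kdr and Tek hold 0. The shorter letters GGAA or TTCC, which were not searched, are present in the printed Kdr and Tek sequences too. RefSeq promoters were found for 17 of the 31 members, and 14 had no entry. Some members have several starts, giving 22 member promoters. The letters AGGAAG lay on either strand in 45.5% of these 22, from 9 of the 17 members (Cd34, Egfl7, Emcn, Eng, Erg, Flt1, Rgcc, Robo4 and Tie1), against 35.4% of all 32851 promoters. The SOX core ACAAT or its reverse complement ATTGT, searched in the same way, lay in 27.3% of the 22, from 6 members (Cd34, Clec14a, Emcn, Erg, Robo4 and Tek), against 31.0% of all promoters. Both motifs were searched without regard to overlap between them, and a match describes the letters only.

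The libraries held 14135502 to 30401422 recovered reads. Tyro3 fell where its alleles were mutated, with a log2 fold change of −1.16 and a limma adjusted p of 0.0101 for the libraries labelled Mertk-/-V2Tyro3-/-V2, and of −1.55 and 0.000935 for Tyro3-/-V1. Itgb5 fell in Itgb5-/-, where the log2 fold change was −1.58 with a limma adjusted p of 0.0176. Mertk reads did not follow the label: in the libraries labelled Mertk-/-V2Tyro3-/-V2 the log2 fold change was −0.06, its 95% interval −0.47 to 0.35 and its limma adjusted p 0.855, and reads summed over a gene cannot see the loss of part of a transcript. Those libraries are therefore named by their label. The first component of the first table held 47.3% of the variance, with C57BL/6 replicate 1 and Mertk-/-V2Tyro3-/-V2 replicate 3 at its ends, and without both libraries the median log2 fold changes of the members were 0.61 for the libraries labelled Mertk-/-V2Tyro3-/-V2 and 0.71 for Tyro3-/-V1, each over C57BL/6 replicates 1 to 3, and −0.07 between the mutant groups.

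All 31 genes had reads in every library. Per kilobase of exon, Plvap, which forms the diaphragms of fenestrae, had the highest mean level of the 31 in C57BL/6, at 490.4 ± 144 normalized counts per kb (SD, n = 6). Ramp2, a partner of the adrenomedullin receptor, followed at 409 ± 164 and Cldn5, a claudin of endothelial tight junctions, at 294 ± 89.8. Eng, a co-receptor for BMP ligands, had 233 ± 76.2 and Kdr 128 ± 68.0, and all neighbours in the order of the 31 differed by less than the larger of their SDs except Eng and Kdr, and Tal1 and Car4. The lowest were Tal1 with 5.32 ± 2.42, a transcription factor shared with blood cells, and Car4 with 2.81 ± 1.54, a membrane-bound carbonic anhydrase. Car4 is a known marker of choriocapillaris, and in the first table its counts did not pass the minimum of 10 in 3 libraries, so 30 of the 31 members were tested there and 31 of 31 in the second.

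Car4 was singled out after its values were seen. It had 7.01, 4.18 and 8.52 normalized counts in the libraries labelled Mertk-/-V2Tyro3-/-V2, while Tyro3-/-V1 had 6.95, 9.36 and 9.38, C57BL/6 replicates 4 to 6 had 5.55, 7.86 and 9.42 and replicates 1 to 3 had 0.933, 3.52 and 5.83. In the second table it had 48.6, 17.8 and 26.7 in Itgb5-/- and 13.0, 15.6 and 19.3 in WT129. It was therefore detected in each library and near the floor of measurement in the first table. The ratio of Plvap to Cldn5 per kb lay between 1.18 and 2.26 over the first table and between 2.48 and 4.13 over the second, so the fenestral gene exceeded the junctional one in all 18 libraries. Of 11 genes known from retinal barrier endothelium, the amino acid transporter Slc38a5 was at 0 in 1 library. Several of the 11 are also expressed outside endothelium, so their sum does not measure retinal vessels.

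**Figure D1:**
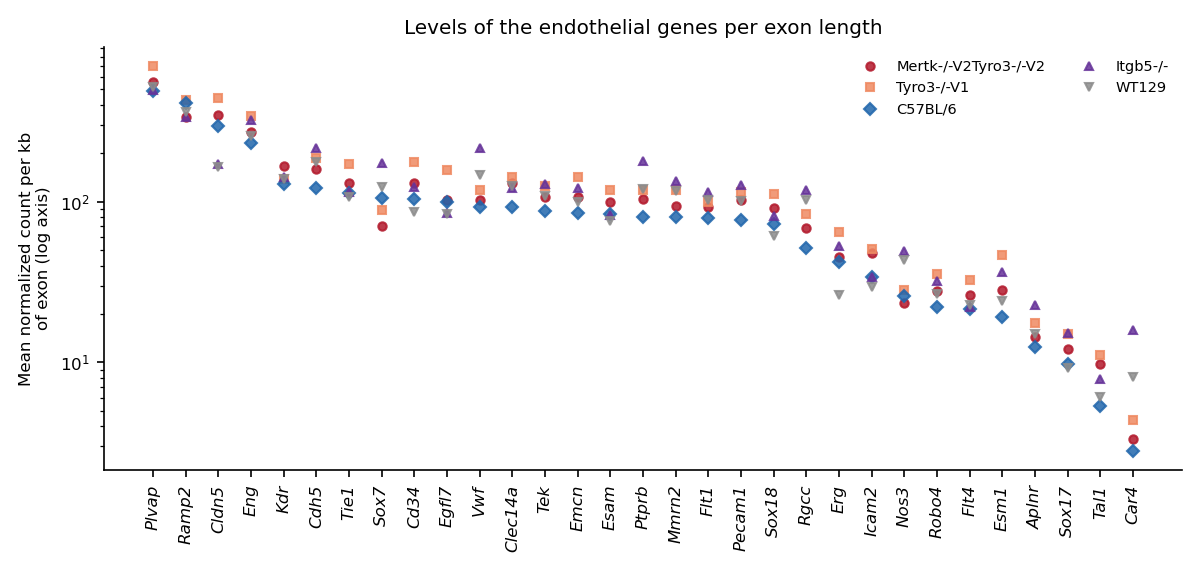
Mean normalized count per kb of exon (log axis) of each member in each of the 5 groups, with C57BL/6 averaged over its 6 libraries and members ordered by their C57BL/6 level. Plvap, Ramp2, Cldn5 and Eng lead and Tal1 and Car4 are lowest in C57BL/6; the 2 tables were normalized separately, so Itgb5-/- and WT129 are set beside the other groups without a test.

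Together the 31 genes took 0.0341% to 0.115% of a library's reads. The libraries labelled Mertk-/-V2Tyro3-/-V2 held 663, 705 and 614 endothelial reads per 1e6 reads, Tyro3-/-V1 held 439.9, 889 and 927, C57BL/6 replicates 4 to 6 held 531, 826 and 672, and C57BL/6 replicates 1 to 3 held 341, 513 and 443. The libraries labelled Mertk-/-V2Tyro3-/-V2 all lay above C57BL/6 replicates 1 to 3 and inside the range of replicates 4 to 6. Of the Tyro3-/-V1 libraries, replicates 2 and 3 were the highest of the first table and replicate 1 lay among C57BL/6 replicates 1 to 3. Means were 661 ± 45.6 in the libraries labelled Mertk-/-V2Tyro3-/-V2, 752 ± 271 in Tyro3-/-V1, 677 ± 148 in C57BL/6 replicates 4 to 6 and 432 ± 86.4 in C57BL/6 replicates 1 to 3 (SD, n = 3 each). Over all 6 C57BL/6 libraries the mean was 554 ± 172, and the highest held 2.42 times the lowest. Counting 1 library at a time, C57BL/6 replicate 1 was the lowest of the 12 for 23 of the 31 members and Tyro3-/-V1 replicate 3 the highest for 20.

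**Figure D2:**
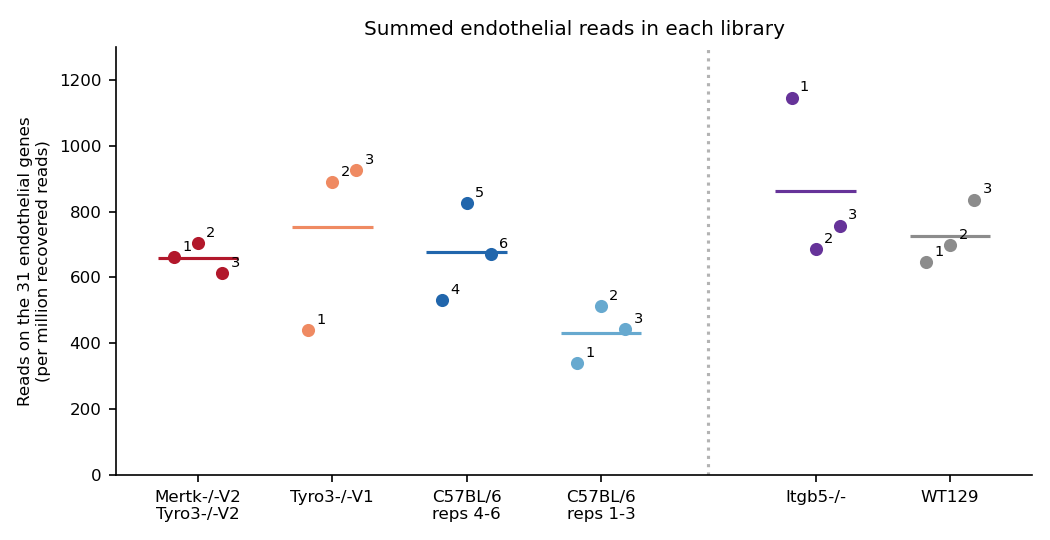
Reads on the 31 endothelial genes per 1e6 recovered reads (y axis) in each library, with the replicate number beside each point and a bar at the mean of each set of 3; the dotted line parts the separately normalized tables. C57BL/6 replicates 1 to 3 sit between 341 and 513, below every library labelled Mertk-/-V2Tyro3-/-V2 and every replicate from 4 to 6, while Tyro3-/-V1 replicate 1 at 439.9 sits among them.

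Most endothelial genes were higher in the libraries labelled Mertk-/-V2Tyro3-/-V2 than in C57BL/6 replicates 1 to 3, and 0 of the 30 members tested passed limma's test over all genes. Of the 30, 28 were higher and Ramp2 and Sox7 lower, and the median log2 fold change was 0.69 against 0.01 over all 19711 genes tested. Of all genes, 50.8% were higher. Over all genes, 0.523% passed the adjusted threshold of 0.05. At an unadjusted p under 0.05, 14 members passed, 12 of them higher, which is 46.7% of the members against 21.9% of all genes. On the recovered reads, edgeR called 0 members, against 0.614% of all genes, and DESeq2 called 3 (Clec14a, Esm1 and Kdr), against 8.57% of all genes. The 3 libraries on each side did not overlap for 20 members, 18 of them higher, which is 66.7% of the members against 30.0% of all genes.

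In Tyro3-/-V1 against C57BL/6 replicates 1 to 3, 28 of 30 members were higher and Ramp2 and Sox7 lower, with a median log2 fold change of 0.86 against −0.00 over all genes. Of all genes, 49.7% were higher. Again 0 of 30 members passed limma's test, where 0.0457% of all genes did. The unadjusted p was under 0.05 for 20 members, all higher, which is 66.7% of the members against 6.71% of all genes. By edgeR 0 members were called, against 0.0457% of all genes, and by DESeq2 5 (Clec14a, Emcn, Erg, Esm1 and Flt4), against 0.649%. Libraries did not overlap for 10 members, 9 higher and Sox7 lower, which is 33.3% of the members against 14.1% of all genes. Without Tyro3-/-V1 replicate 1 the median was 1.27 and 1 of 30 members, Ptprb, passed limma's test, which is 3.33% against 0.0459% of all genes in that fit. Both mutant groups were set against the same 3 C57BL/6 libraries, so the signs of their fold changes are not independent of each other.

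The C57BL/6 sets stood apart in the same direction. Between replicates 4 to 6 and replicates 1 to 3, 28 of 30 members were higher and Ramp2 and Sox7 lower, and the median log2 fold change was 0.68 against −0.01 over all genes. Of all genes, 49.4% were higher. No member passed limma's test (0 of 30), where 0.167% of all genes did, and 13 had an unadjusted p under 0.05, 12 of them higher, which is 43.3% of the members against 24.0% of all genes. The edgeR test called 0 members against 0.203% of all genes, and DESeq2 called 1, Ramp2, which was lower, against 4.47%. The sets did not overlap for 16 members, 14 of them higher, which is 53.3% of the members against 35.2% of all genes. All 3 comparisons share C57BL/6 replicates 1 to 3. Set against replicates 4 to 6 instead, a comparison chosen after seeing the data, the median over the members was −0.03 for the libraries labelled Mertk-/-V2Tyro3-/-V2, while for Tyro3-/-V1 it was 0.24, with 0 members past limma's threshold in either, where 0.654% and 0.101% of all genes passed. At an unadjusted p under 0.05, 0 members passed for the libraries labelled Mertk-/-V2Tyro3-/-V2, against 10.7% of all genes. For Tyro3-/-V1 it was 4 (Cd34, Esm1, Ramp2 and Tal1), which is 13.3% of the members against 19.8% of all genes.

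Between the libraries labelled Mertk-/-V2Tyro3-/-V2 and Tyro3-/-V1, the median log2 fold change over the members was −0.22, against −0.01 over all genes. Of the 30 members 2, Kdr and Sox17, were higher, against 48.7% of all genes. No member passed limma's test (0 of 30, against 0.137% of all genes). Unadjusted p was under 0.05 for 2 members, Erg and Esm1, both lower, which is 6.67% against 13.8% of all genes. Neither edgeR (0.178% of all genes) nor DESeq2 (3.28% of all genes) called a member, 0 in both. Libraries did not overlap for 4 members, Cd34, Erg, Esm1 and Ramp2, all lower, which is 13.3% against 18.2% of all genes. The median was −0.07 without Mertk-/-V2Tyro3-/-V2 replicate 3, −0.57 without Tyro3-/-V1 replicate 1, −0.06 without Tyro3-/-V1 replicate 2 and −0.03 without its replicate 3.

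**Figure D3:**
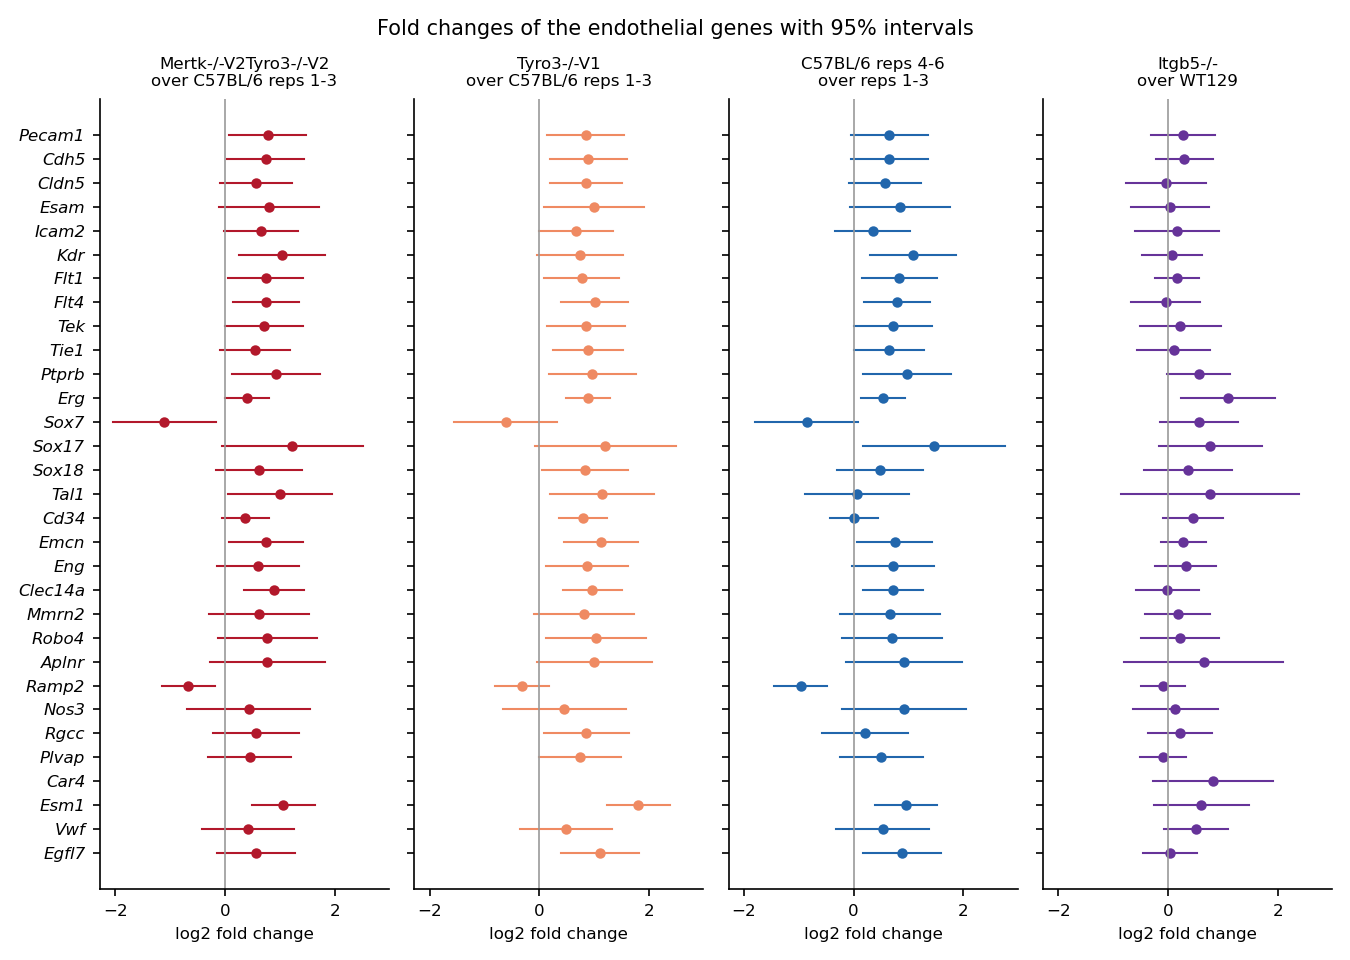
Log2 fold change (x axis) of each member with its 95% interval from limma, in 4 comparisons. In the 3 panels of the first table, 28 of the 30 members tested sit to the right of 0 and Sox7 and Ramp2 to the left, including the panel of C57BL/6 replicates 4 to 6 over replicates 1 to 3; Car4 was not tested in that table.

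Junction and adhesion genes were higher in both mutant groups than in C57BL/6 replicates 1 to 3. Pecam1 (chromosome 11, 106654217 to 106750628, GENCODE M21 on GRCm38, as for all positions here), an adhesion protein of endothelial contacts, had 637, 727 and 535 normalized counts in the libraries labelled Mertk-/-V2Tyro3-/-V2, while Tyro3-/-V1 had 357, 907 and 887, C57BL/6 replicates 4 to 6 had 514, 668 and 556 and replicates 1 to 3 had 314, 454 and 344. The libraries labelled Mertk-/-V2Tyro3-/-V2 lay above replicates 1 to 3 and overlapped replicates 4 to 6, and Tyro3-/-V1 replicate 1 overlapped replicates 1 to 3. The log2 fold change was 0.78 ± 0.32 (SE) in the libraries labelled Mertk-/-V2Tyro3-/-V2 (limma adjusted p = 0.201) and 0.85 ± 0.32 in Tyro3-/-V1 (limma adjusted p = 0.653), the second being 1.29 without Tyro3-/-V1 replicate 1. Cdh5 (chromosome 8, 104101625 to 104144511) encodes the cadherin of endothelial adherens junctions. It had 686, 815 and 511 in the libraries labelled Mertk-/-V2Tyro3-/-V2, while Tyro3-/-V1 had 412, 967 and 991, C57BL/6 replicates 4 to 6 had 562, 771 and 546 and replicates 1 to 3 had 336, 439.6 and 416. Its pattern was that of Pecam1, with replicates 1 to 3 below every library labelled Mertk-/-V2Tyro3-/-V2 and Tyro3-/-V1 replicate 1 among them. Its log2 fold changes were 0.74 ± 0.32 in the libraries labelled Mertk-/-V2Tyro3-/-V2 (limma adjusted p = 0.215) and 0.89 ± 0.32 in Tyro3-/-V1 (limma adjusted p = 0.621).

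Cldn5 (chromosome 16, 18776847 to 18778262) had 416, 607 and 456 normalized counts in the libraries labelled Mertk-/-V2Tyro3-/-V2, while Tyro3-/-V1 had 368, 729 and 782, C57BL/6 replicates 4 to 6 had 357, 559.6 and 586 and replicates 1 to 3 had 269, 343 and 385. Replicates 4 to 6 overlapped replicates 1 to 3, as did Tyro3-/-V1, and the libraries labelled Mertk-/-V2Tyro3-/-V2 lay just above replicates 1 to 3. The log2 fold change of Cldn5 was 0.56 ± 0.30 in the libraries labelled Mertk-/-V2Tyro3-/-V2 (limma adjusted p = 0.279) and 0.85 ± 0.30 in Tyro3-/-V1 (limma adjusted p = 0.611). Esam and Icam2, adhesion proteins of endothelial contacts and surfaces, completed the 5 members of this role. Over the 5, log2 fold changes ran between 0.56 and 0.81 in the libraries labelled Mertk-/-V2Tyro3-/-V2, between 0.67 and 0.99 in Tyro3-/-V1 and between 0.34 and 0.84 in C57BL/6 replicates 4 to 6 over replicates 1 to 3.

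The 3 VEGF receptors were also higher than in C57BL/6 replicates 1 to 3 in each other set of the first table. Kdr (chromosome 5, 75932827 to 75978458), the main signalling receptor for VEGF, had 1276, 1165 and 2083 normalized counts in the libraries labelled Mertk-/-V2Tyro3-/-V2, while Tyro3-/-V1 had 815, 1348 and 1559.6, C57BL/6 replicates 4 to 6 had 1039.7, 2223 and 1489.7 and replicates 1 to 3 had 505, 918 and 777. The highest were C57BL/6 replicate 5 and Mertk-/-V2Tyro3-/-V2 replicate 3, and Tyro3-/-V1 replicate 1 overlapped C57BL/6 replicates 1 to 3. For Kdr the log2 fold change was 1.03 ± 0.35 in the libraries labelled Mertk-/-V2Tyro3-/-V2 (limma adjusted p = 0.157) and 0.75 ± 0.35 in Tyro3-/-V1 (limma adjusted p = 0.764). Between the C57BL/6 sets it was 1.08 ± 0.35 (limma adjusted p = 0.163). Flt1 (chromosome 5, 147561604 to 147726011), which binds VEGF and limits its signalling, had 1147, 1131 and 1488 in the libraries labelled Mertk-/-V2Tyro3-/-V2, while Tyro3-/-V1 had 767, 1652 and 1627, C57BL/6 replicates 4 to 6 had 923, 1666 and 1531 and replicates 1 to 3 had 639, 869 and 748. Replicates 1 to 3 were the lowest set with Tyro3-/-V1 replicate 1 inside it, and the log2 fold changes were 0.74 ± 0.31 in the libraries labelled Mertk-/-V2Tyro3-/-V2 (limma adjusted p = 0.208) and 0.77 ± 0.31 in Tyro3-/-V1 (limma adjusted p = 0.687). Flt4, a VEGF receptor best known from lymphatic vessels and also present in fenestrated capillaries, had log2 fold changes of 0.74 in the libraries labelled Mertk-/-V2Tyro3-/-V2, 1.01 in Tyro3-/-V1 and 0.79 between the C57BL/6 sets. It did not overlap C57BL/6 replicates 1 to 3 in any of the 3.

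Kdr did not keep a fixed ratio to Cdh5 from library to library, which was noticed after the values were seen. The ratio of Kdr to Cdh5 counts was 1.86, 1.43 and 4.08 in the libraries labelled Mertk-/-V2Tyro3-/-V2, while Tyro3-/-V1 had 1.98, 1.39 and 1.57, C57BL/6 replicates 4 to 6 had 1.85, 2.88 and 2.73 and replicates 1 to 3 had 1.51, 2.09 and 1.87. In the second table it was 1.38, 1.37 and 1.58 in Itgb5-/- and 1.41, 2.73 and 1.23 in WT129. The high ratios were those of Mertk-/-V2Tyro3-/-V2 replicate 3, C57BL/6 replicates 5 and 6, and WT129 replicate 2. For Flt1 the ratio to Cdh5 was 1.67, 1.39 and 2.91 in the libraries labelled Mertk-/-V2Tyro3-/-V2, while Tyro3-/-V1 had 1.86, 1.71 and 1.64, C57BL/6 replicates 4 to 6 had 1.64, 2.16 and 2.80 and replicates 1 to 3 had 1.90, 1.98 and 1.80. The same 3 libraries of the first table were thus its highest for both receptors. The Flt1 ratio in the second table was 1.73, 1.47 and 2.03 in Itgb5-/- and 2.12, 1.98 and 1.62 in WT129, where WT129 replicate 2 was not the highest. The summed counts of 15 rod photoreceptor markers were 122285, 102260 and 290531 in the libraries labelled Mertk-/-V2Tyro3-/-V2, while Tyro3-/-V1 had 105056, 102408 and 142541, C57BL/6 replicates 4 to 6 had 149980, 385266 and 331205 and replicates 1 to 3 had 39629, 137525 and 115128. In the second table they were 67896, 95726 and 136858 in Itgb5-/- and 204387, 477345 and 223765 in WT129. The 3 high libraries of the first table held its 3 highest rod sums and WT129 replicate 2 the highest of the second, none of the 15 markers was at 0, and their part in the Kdr and Flt1 ratios was not tested. All 15 rod markers were higher in the libraries labelled Mertk-/-V2Tyro3-/-V2, Tyro3-/-V1 and C57BL/6 replicates 4 to 6 than in replicates 1 to 3, with median log2 fold changes of 0.92, 0.41 and 1.72, and 0 of 15 passed limma's test in each.

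The angiopoietin receptors and their partner phosphatase were highest in Tyro3-/-V1 replicates 2 and 3. Tek (chromosome 4, 94739289 to 94874976), the receptor of the angiopoietins, had 544, 557 and 414 normalized counts in the libraries labelled Mertk-/-V2Tyro3-/-V2, while Tyro3-/-V1 had 319, 698 and 762, C57BL/6 replicates 4 to 6 had 379, 639.5 and 526 and replicates 1 to 3 had 274, 389 and 267. The libraries labelled Mertk-/-V2Tyro3-/-V2 lay above replicates 1 to 3, while Tyro3-/-V1 replicate 1 and C57BL/6 replicate 4 fell inside them. Log2 fold changes were 0.71 ± 0.32 in the libraries labelled Mertk-/-V2Tyro3-/-V2 (limma adjusted p = 0.228) and 0.86 ± 0.32 in Tyro3-/-V1 (limma adjusted p = 0.653). Ptprb (chromosome 10, 116275523 to 116389535) encodes the phosphatase that acts on Tek and on endothelial junctions. It had 1387, 1576 and 1164 in the libraries labelled Mertk-/-V2Tyro3-/-V2, while Tyro3-/-V1 had 674, 1901 and 2149, C57BL/6 replicates 4 to 6 had 1160.0, 1685 and 1424 and replicates 1 to 3 had 671, 773 and 713. Tyro3-/-V1 replicate 1 lay at the lower end of replicates 1 to 3, and the other 2 Tyro3-/-V1 libraries were the highest of the table. Its log2 fold changes were 0.93 in the libraries labelled Mertk-/-V2Tyro3-/-V2, 0.97 in Tyro3-/-V1 and 0.97 between the C57BL/6 sets. Tie1, an orphan receptor that pairs with Tek, had log2 fold changes of 0.55, 0.88 and 0.64 in the same 3 comparisons.

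The 5 transcription factors did not share one direction. Erg (chromosome 16, 95359169 to 95586593), an ETS factor of endothelial identity, had 156, 173 and 143 normalized counts in the libraries labelled Mertk-/-V2Tyro3-/-V2, while Tyro3-/-V1 had 186, 208 and 276, C57BL/6 replicates 4 to 6 had 179, 189 and 151 and replicates 1 to 3 had 106, 115 and 136. No library of the 3 other sets overlapped replicates 1 to 3, and Tyro3-/-V1 lay above the libraries labelled Mertk-/-V2Tyro3-/-V2 throughout. The log2 fold change was 0.40 ± 0.18 in the libraries labelled Mertk-/-V2Tyro3-/-V2 (limma adjusted p = 0.225), 0.89 ± 0.18 in Tyro3-/-V1 (limma adjusted p = 0.285) and −0.49 ± 0.18 between the mutant groups (limma adjusted p = 0.299), the last being −0.32 without Tyro3-/-V1 replicate 3. Sox17 (chromosome 1, 4490931 to 4497354), a SOX factor of arterial endothelium that was singled out after its values were seen, had 51.1, 75.2 and 46.0 in the libraries labelled Mertk-/-V2Tyro3-/-V2, while Tyro3-/-V1 had 16.9, 93.6 and 103, C57BL/6 replicates 4 to 6 had 44.4, 85.2 and 76.9 and replicates 1 to 3 had 20.5, 29.3 and 21.4. Tyro3-/-V1 replicate 1 was the lowest library and its replicates 2 and 3 the highest. The log2 fold changes were 1.23 ± 0.58 in the libraries labelled Mertk-/-V2Tyro3-/-V2 (limma adjusted p = 0.243) and 1.20 ± 0.58 in Tyro3-/-V1 (limma adjusted p = 0.773). The value in Tyro3-/-V1 was 2.02 without its replicate 1 and 0.75 without its replicate 3. Sox18, a SOX factor of blood and lymphatic vessels, had 0.62, 0.84 and 0.48 on the log2 scale for the libraries labelled Mertk-/-V2Tyro3-/-V2, for Tyro3-/-V1 and between the C57BL/6 sets. Tal1 had 1.00, 1.15 and 0.06.

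Sox7 (chromosome 14, 63943673 to 63950732), the remaining SOX factor, ran the other way in the first table. It had 361, 246 and 94.5 normalized counts in the libraries labelled Mertk-/-V2Tyro3-/-V2, while Tyro3-/-V1 had 353, 294 and 226, C57BL/6 replicates 4 to 6 had 316, 223 and 201 and replicates 1 to 3 had 589, 388 and 368. All 9 libraries of the other sets lay below all of replicates 1 to 3, and Mertk-/-V2Tyro3-/-V2 replicate 3 was the lowest of the 12. For Sox7 the log2 fold change was −1.11 ± 0.42 in the libraries labelled Mertk-/-V2Tyro3-/-V2 (limma adjusted p = 0.184), −0.61 ± 0.42 in Tyro3-/-V1 (limma adjusted p = 0.889) and −0.85 ± 0.42 between the C57BL/6 sets (limma adjusted p = 0.231). Without Mertk-/-V2Tyro3-/-V2 replicate 3 the first of these was −0.56, and without C57BL/6 replicate 1 the second was −0.40. Sox7 was singled out after its values were seen.

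Sox7 counts went with markers of another tissue. The summed counts of 12 ocular surface epithelium markers, among them the basal keratins Krt5 and Krt14, were 271210, 126928 and 45934 in the libraries labelled Mertk-/-V2Tyro3-/-V2, while Tyro3-/-V1 had 334104, 203332 and 83496, C57BL/6 replicates 4 to 6 had 199708, 117083 and 73254 and replicates 1 to 3 had 353500, 247003 and 250045. In the second table the sums were 208366, 337455 and 297958 in Itgb5-/- and 301592, 110987 and 270002 in WT129, while Sox7 had 491, 698 and 538 in Itgb5-/- and 480.4, 235 and 498 in WT129. The lowest library of each table was the same for Sox7 and for these markers, as was the highest. Of the 12 markers, 11 were lower in the libraries labelled Mertk-/-V2Tyro3-/-V2 than in C57BL/6 replicates 1 to 3, 12 were lower in Tyro3-/-V1 and 11 in C57BL/6 replicates 4 to 6, with 0 past limma's threshold in each. None of the 12 was at 0, and their part in the Sox7 result was not tested.

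**Figure D4:**
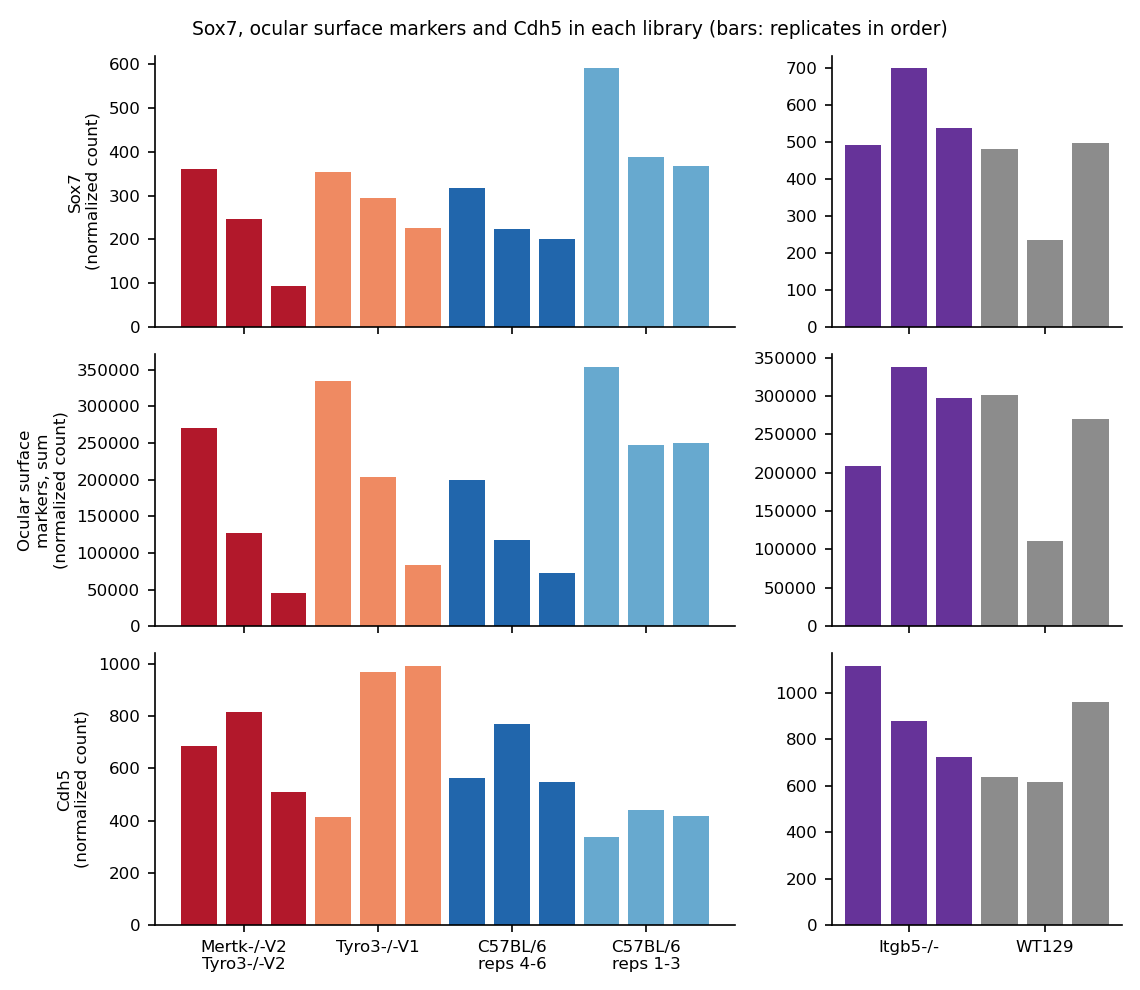
Normalized counts of Sox7, of 12 ocular surface markers summed and of Cdh5 in each library (y axes from 0), with bars for replicates in number order within each set. Sox7 and the ocular surface sum are highest in C57BL/6 replicate 1 and lowest in Mertk-/-V2Tyro3-/-V2 replicate 3 of the first table, whereas Cdh5 is lowest in C57BL/6 replicate 1.

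The 6 surface glycoproteins and ligands were all higher in both mutant groups than in C57BL/6 replicates 1 to 3. Clec14a (chromosome 12, 58264720 to 58269290), a lectin of endothelial cells, had 647, 654 and 485 normalized counts in the libraries labelled Mertk-/-V2Tyro3-/-V2, while Tyro3-/-V1 had 398, 749 and 801, C57BL/6 replicates 4 to 6 had 435, 607 and 534 and replicates 1 to 3 had 284, 317 and 353. Replicates 1 to 3 lay below every other library of the table. Its log2 fold change was 0.90 ± 0.25 in the libraries labelled Mertk-/-V2Tyro3-/-V2 (limma adjusted p = 0.109), 0.97 ± 0.25 in Tyro3-/-V1 (limma adjusted p = 0.391) and 0.71 ± 0.25 between the C57BL/6 sets (limma adjusted p = 0.165). Mmrn2, the matrix ligand of Clec14a, had 0.61, 0.81 and 0.66 on the log2 scale in these 3 comparisons. The sialomucin Emcn had 0.75, 1.12 and 0.74, Eng had 0.61, 0.86 and 0.71, and the guidance receptor Robo4 had 0.77, 1.03 and 0.70. Cd34, a sialomucin also found on fibroblasts and blood progenitors, had the smallest difference between the C57BL/6 sets among these 6. It had 1005, 1050.1 and 820.1 normalized counts in the libraries labelled Mertk-/-V2Tyro3-/-V2, while Tyro3-/-V1 had 1136, 1258 and 1450.2, C57BL/6 replicates 4 to 6 had 771, 826 and 640.5 and replicates 1 to 3 had 586, 1027 and 661, and all 3 Tyro3-/-V1 libraries lay above all 9 others. Its log2 fold change in Tyro3-/-V1 was 0.79 ± 0.20 (limma adjusted p = 0.374) and between the C57BL/6 sets 0.01, with a 95% interval of −0.42 to 0.45.

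Peptide receptors and signalling proteins held the second gene that ran the other way. Ramp2 (chromosome 11, 101246028 to 101259546) had 1081, 1020.0 and 1208 normalized counts in the libraries labelled Mertk-/-V2Tyro3-/-V2, while Tyro3-/-V1 had 1231, 1667 and 1360.5, C57BL/6 replicates 4 to 6 had 1301, 691 and 802 and replicates 1 to 3 had 1464, 2091 and 1755. C57BL/6 replicates 5 and 6 were the lowest libraries of the table, and the libraries labelled Mertk-/-V2Tyro3-/-V2 lay below replicates 1 to 3 and overlapped replicates 4 to 6. Tyro3-/-V1 overlapped both C57BL/6 sets. Ramp2 was named here both for its small p and after its values were seen. Its log2 fold change was −0.97 ± 0.22 between the C57BL/6 sets (limma adjusted p = 0.125), −0.67 ± 0.22 for the libraries labelled Mertk-/-V2Tyro3-/-V2 (limma adjusted p = 0.146) and −0.31 ± 0.22 in Tyro3-/-V1 (limma adjusted p = 0.891), and the last was −0.19 without C57BL/6 replicate 2. Without C57BL/6 replicate 4 the difference between the C57BL/6 sets was −1.23 and passed limma's test (adjusted p = 0.0337; 0.0136 to 0.353 over all alternatives), where 0.465% of all genes in that fit passed. Set against replicates 4 to 6, Ramp2 was higher by 0.30 in the libraries labelled Mertk-/-V2Tyro3-/-V2, while it was higher by 0.65 in Tyro3-/-V1, on the log2 scale. Aplnr, the apelin receptor, had log2 fold changes of 0.77, 1.00 and 0.92 for the libraries labelled Mertk-/-V2Tyro3-/-V2, for Tyro3-/-V1 and between the C57BL/6 sets. The endothelial nitric oxide synthase Nos3 had 0.43, 0.46 and 0.92, and Rgcc, a cell cycle regulator of endothelium, had 0.57, 0.86 and 0.21.

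Calcrl (chromosome 2, 84330626 to 84425411), the receptor that Ramp2 accompanies at the membrane, rose in the libraries labelled Mertk-/-V2Tyro3-/-V2. It had 439, 427 and 375 normalized counts there, 300.0, 413 and 449 in Tyro3-/-V1, 220.2, 294 and 275 in C57BL/6 replicates 4 to 6 and 177, 171 and 226 in replicates 1 to 3. Each mutant library of the table lay above each C57BL/6 library. Its log2 fold change was 1.11 (limma adjusted p = 0.0348) for the libraries labelled Mertk-/-V2Tyro3-/-V2, 1.00 (limma adjusted p = 0.191) in Tyro3-/-V1 and 0.45 (limma adjusted p = 0.178) between the C57BL/6 sets. It was the 1 gene of 7 measured angiopoietin, apelin and adrenomedullin ligands and receptors that passed.

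Among genes of capillary specialisation and secretion, Esm1 had the smallest p of all members in Tyro3-/-V1 and in the libraries labelled Mertk-/-V2Tyro3-/-V2. Esm1 (chromosome 13, 113209659 to 113218098), a secreted proteoglycan induced by VEGF in endothelial tip cells, had 54.1, 77.7 and 44.3 normalized counts in the libraries labelled Mertk-/-V2Tyro3-/-V2, while Tyro3-/-V1 had 82.4, 126 and 85.5, C57BL/6 replicates 4 to 6 had 44.4, 57.7 and 58.1 and replicates 1 to 3 had 29.8, 24.6 and 26.2. Replicates 1 to 3 were below all others, Tyro3-/-V1 was above all others, and the libraries labelled Mertk-/-V2Tyro3-/-V2 overlapped replicates 4 to 6. The log2 fold change was 1.80 ± 0.26 in Tyro3-/-V1 (limma adjusted p = 0.053), which missed the threshold, and 1.06 ± 0.26 in the libraries labelled Mertk-/-V2Tyro3-/-V2 (limma adjusted p = 0.0883). It was −0.74 ± 0.26 between the mutant groups (limma adjusted p = 0.285) and 0.96 ± 0.26 between the C57BL/6 sets (limma adjusted p = 0.146). In Tyro3-/-V1 against C57BL/6 replicates 4 to 6, it was 0.85. Plvap (chromosome 8, 71497765 to 71511752) had 1242, 1316 and 759 in the libraries labelled Mertk-/-V2Tyro3-/-V2, while Tyro3-/-V1 had 812, 1648 and 1689.9, C57BL/6 replicates 4 to 6 had 912, 1397 and 1094 and replicates 1 to 3 had 568, 1090.2 and 785. All sets overlapped, and the log2 fold change was 0.45 ± 0.34 in the libraries labelled Mertk-/-V2Tyro3-/-V2 (limma adjusted p = 0.424) and 0.74 ± 0.34 in Tyro3-/-V1 (limma adjusted p = 0.748). The Plvap value for the libraries labelled Mertk-/-V2Tyro3-/-V2 was 0.22 without C57BL/6 replicate 1, 0.69 without C57BL/6 replicate 2 and 0.70 without Mertk-/-V2Tyro3-/-V2 replicate 3. Vwf, the clotting factor stored in endothelial granules, had 0.42, 0.49 and 0.52 on the log2 scale for the libraries labelled Mertk-/-V2Tyro3-/-V2, for Tyro3-/-V1 and between the C57BL/6 sets. Egfl7, a secreted vessel protein, had 0.56, 1.10 and 0.89.

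**Figure D5:**
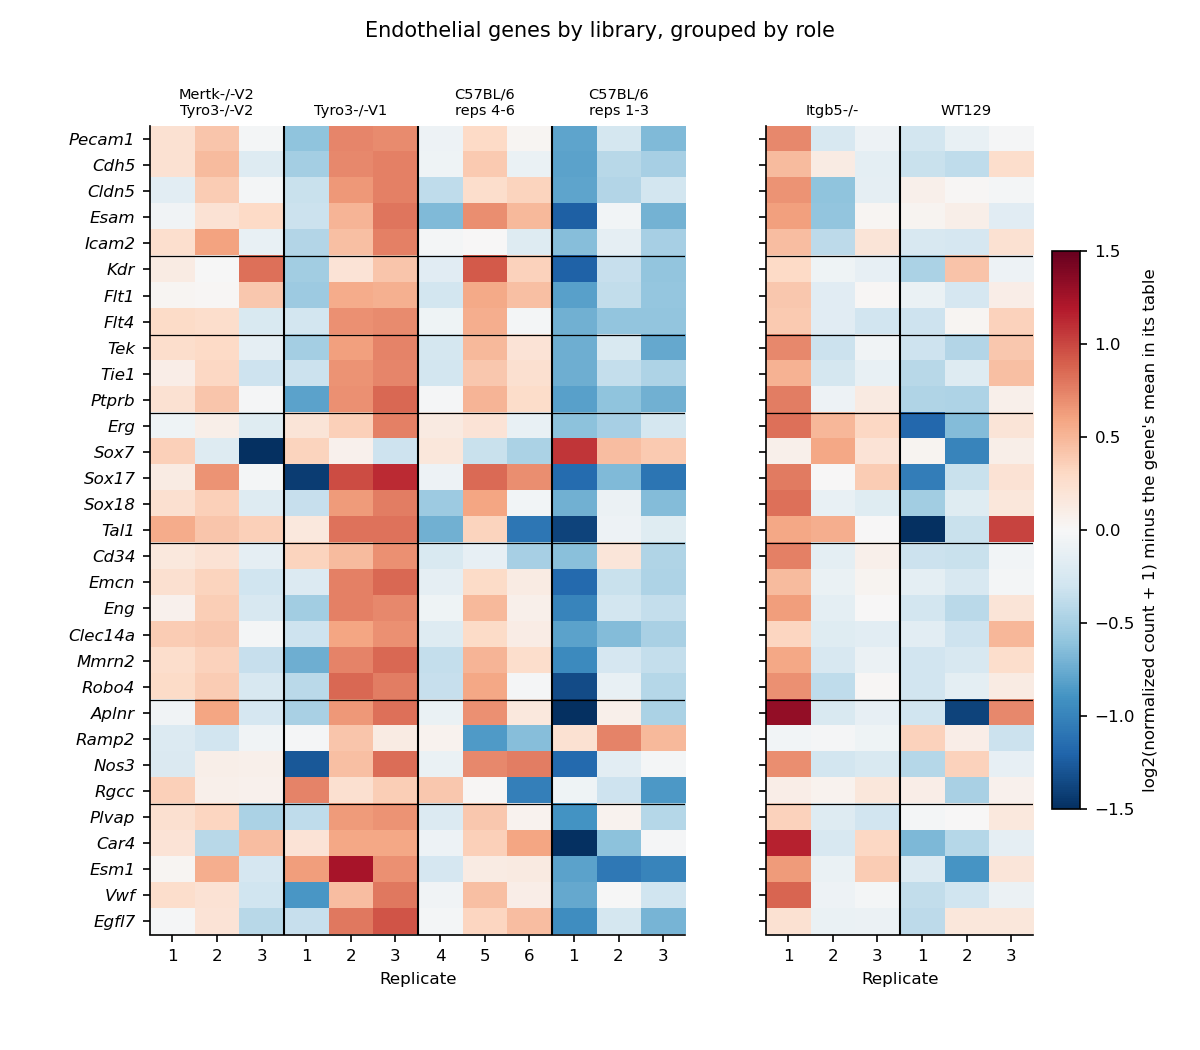
Log2(normalized count + 1) of each of the 31 members (rows, grouped by role) in each library (columns), minus the gene's mean over its own table; the colours do not deepen past the ends of the scale. In the first table C57BL/6 replicate 1 is low and Tyro3-/-V1 replicates 2 and 3 high for most members, and Sox7 and Ramp2 run against the others; in the second, Itgb5-/- replicate 1 is high for most.

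In the second table the endothelial genes of Itgb5-/- mostly overlapped those of WT129, with 1 Itgb5-/- library high. Endothelial reads per 1e6 reads were 1146, 686 and 757 in Itgb5-/- and 646, 699 and 837 in WT129, with means of 863 ± 248 in Itgb5-/- and 727 ± 98.4 in WT129 (SD, n = 3 each). Itgb5-/- replicate 1 was the highest library for 25 of the 31 members, and the others overlapped. The median log2 fold change over the members was 0.23, against 0.04 over all 18648 genes tested. Of the 31 members 26 were higher, against 56.0% of all genes, and the members' median was 0.01 without Itgb5-/- replicate 1. It was 0.41 without Itgb5-/- replicate 2 and 0.35 without WT129 replicate 3. No member passed limma's test (0 of 31, against 0.0375% of all genes), and 1, Erg, had an unadjusted p under 0.05, which is 3.23% against 8.28% of all genes. Both edgeR (0.0268% of all genes) and DESeq2 (2.30% of all genes) called 0 members. Libraries did not overlap for 2 members, Erg and Vwf, both higher, which is 6.45% against 15.4% of all genes.

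Erg had 220.2, 175 and 154 normalized counts in Itgb5-/- and 54.1, 78.7 and 141 in WT129, with the lowest Itgb5-/- library above the highest WT129 library, and its log2 fold change was 1.09 ± 0.37 (limma adjusted p = 0.499). Vwf (chromosome 6, 125546774 to 125686679) had 5086, 2630.0 and 2730.3 in Itgb5-/- and 2150.1, 2252 and 2611 in WT129, whose closest libraries nearly touched, and its log2 fold change was 0.51 ± 0.25 (limma adjusted p = 0.645). Ptprb had 3236, 1815 and 2101 in Itgb5-/- and 1394, 1383 and 2017 in WT129, which overlapped, and its log2 fold change was 0.56 ± 0.24 (limma adjusted p = 0.606), or 0.31 without Itgb5-/- replicate 1. Itgb5-/- replicate 1 was the highest for all 3 genes. The junction genes overlapped between the groups. Pecam1 had 1134, 579.7 and 653 in Itgb5-/- and 566, 636 and 678 in WT129, and Cdh5 had 1114, 876 and 722 in Itgb5-/- and 637, 617 and 961 in WT129. Cldn5 had 365, 151 and 208 in Itgb5-/- and 240.2, 231 and 224 in WT129. Their log2 fold changes were 0.27 for Pecam1, 0.30 for Cdh5 and −0.04 for Cldn5.

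Receptors overlapped as well. Kdr had 1539, 1196 and 1141 normalized counts in Itgb5-/- and 899, 1685 and 1185 in WT129, and Flt1 had 1925, 1289 and 1468 in Itgb5-/- and 1349, 1219.5 and 1554 in WT129. Tek had 875, 426 and 511 in Itgb5-/- and 428, 393 and 706 in WT129. Plvap was spread over 1269.8, 873 and 819 in Itgb5-/- and 978, 1002 and 1109.5 in WT129. The 95% intervals of the log2 fold change were −0.47 to 0.62 for Kdr, −0.23 to 0.57 for Flt1, −0.52 to 0.97 for Tek and −0.50 to 0.33 for Plvap. The transcription factors gave the highest median by role, 0.76 over 5 genes, and included Sox7 at 0.57 and Sox17 at 0.77, both positive here. Of the rest, Car4 had a log2 fold change of 0.82 (95% interval −0.26 to 1.90), Esm1 of 0.61 with 93.7, 55.7 and 78.2 in Itgb5-/- and 51.9, 32.0 and 68.2 in WT129, and Ramp2 of −0.09 with 1105, 1128 and 1089 in Itgb5-/- and 1454, 1225 and 910.0 in WT129.

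Other vascular genes were mostly higher too. Of 28 further genes known from endothelium in general, 24 were higher in the libraries labelled Mertk-/-V2Tyro3-/-V2, 21 in Tyro3-/-V1 and 23 in C57BL/6 replicates 4 to 6 than in C57BL/6 replicates 1 to 3, with medians of 0.73, 0.69 and 0.53 on the log2 scale and 0 past limma's threshold. Of 14 other endothelial transcription factors (the fifteenth, Etv2, was at 0 in all 18 libraries), 10, 12 and 8 were higher in the same 3 comparisons, with medians of 0.37, 0.62 and 0.43, and of 12 arterial and venous genes 10, 10 and 9, with medians of 0.63, 0.40 and 0.40. The signalling lists lay nearer to 0. Medians were −0.06, 0.13 and 0.05 for 7 VEGF family ligands and co-receptors, 0.28, 0.05 and 0.15 for 11 genes of Notch signalling in endothelium and −0.02, 0.07 and 0.03 for 11 genes of BMP9 and ALK1 signalling, and 0 genes of these lists passed. The 7 measured angiopoietin, apelin and adrenomedullin genes had medians of 0.53, 0.34 and 0.14, and the 4 measured lymphatic genes 0.35, −0.02 and 0.22, with Ccl21a at 0 in all 18 libraries. In Itgb5-/- against WT129, the 27 general endothelial genes measured had a median of 0.16, and 0 genes of any of these lists passed.

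Markers of other choroidal and retinal cells differed between the same sets, and their part in the endothelial differences was not tested. Summed counts of 15 mural cell markers were 17327 to 23411 in the libraries labelled Mertk-/-V2Tyro3-/-V2, 15293 to 19522 in Tyro3-/-V1, 18175 to 22617 in C57BL/6 replicates 4 to 6 and 14231 to 18106 in replicates 1 to 3. Of the 14 measured, 9, 9 and 8 were higher than in replicates 1 to 3, with medians of 0.53, 0.21 and 0.31, and Higd1b was at 0 in 3 libraries. Choroidal fibroblast markers summed to 48072 to 54798 in the libraries labelled Mertk-/-V2Tyro3-/-V2, 53918 to 64701 in Tyro3-/-V1, 44981 to 47734 in C57BL/6 replicates 4 to 6 and 37253 to 45323 in replicates 1 to 3. The proteoglycan gene Lum was the 1 of 12 that rose, in Tyro3-/-V1 over C57BL/6 replicates 1 to 3 (log2 fold change 1.23, limma adjusted p = 0.0358), and the medians were 0.19, 0.57 and 0.18. The 5 red blood cell genes summed to 22860 to 27760 in the libraries labelled Mertk-/-V2Tyro3-/-V2, 16700 to 23384 in Tyro3-/-V1, 7695 to 10238 in C57BL/6 replicates 4 to 6 and 17682 to 54305 in replicates 1 to 3. All 5 were lower than in replicates 1 to 3 in each of the 3 comparisons, with medians of −0.40, −0.94 and −1.77 and 0 past the threshold. In these 3 comparisons, which share replicates 1 to 3, the red cell medians had the opposite sign to the endothelial ones. In Itgb5-/- over WT129 they had the same sign, with all 5 red cell genes higher at a median of 0.48. In the second table, fibroblast sums were 18739.9 to 36654 in Itgb5-/- and 15298 to 28622 in WT129, mural sums 10889 to 12155 in Itgb5-/- and 10538 to 14940.3 in WT129, and red cell sums 14139.9 to 40782 in Itgb5-/- and 12496 to 18456 in WT129.

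Macrophage and microglia markers summed to 9962 to 12611 in the libraries labelled Mertk-/-V2Tyro3-/-V2, 11712 to 15273 in Tyro3-/-V1, 9259 to 11298 in C57BL/6 replicates 4 to 6 and 11697 to 14289 in replicates 1 to 3. Of 15, 14, 13 and 4 were higher than in replicates 1 to 3, with median log2 fold changes of 0.65, 0.26 and −0.12. The sums of the libraries labelled Mertk-/-V2Tyro3-/-V2 therefore did not follow the direction of most of the markers. The complement gene C1qc (log2 fold change 0.93, limma adjusted p = 0.0459) and the protease gene Ctss (0.78, limma adjusted p = 0.0352) rose in the libraries labelled Mertk-/-V2Tyro3-/-V2 over C57BL/6 replicates 1 to 3. Among 15 RPE markers, the isomerase gene Rpe65 fell in those libraries, with a log2 fold change of −1.53 against C57BL/6 replicates 1 to 3 (limma adjusted p = 0.0268) and −1.46 against Tyro3-/-V1 (limma adjusted p = 0.0379). Median log2 fold changes of the RPE list were −0.69 in the libraries labelled Mertk-/-V2Tyro3-/-V2, −0.06 in Tyro3-/-V1 and −0.35 between the C57BL/6 sets. Of the 11 retinal barrier genes, 7 were higher and 4 lower in each of these 3 comparisons, with medians of 0.51, 0.16 and 0.31. Medians of the remaining lists were −0.04, 0.65 and 0.18 for melanocytes and Schwann cells, 0.97, −0.11 and 0.97 for inner retina and Muller glia and 1.42, −0.28 and −1.15 for lens, with 0 genes past the threshold.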

How the data were processed

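The members, the gene lists and the tests were chosen with earlier results of these data known. RPE messenger RNA was sequenced as paired ends, and STAR, DESeq2, GRCm38 and mm10 are named, without versions, per the submitters' processing notes. The deposited signal per gene is what the authors name a normalized count, in 2 tables normalized separately, so nothing was tested across them. Dividing by each library's smallest step gave whole reads for 100% of values above 0, within 0.001 read, with size factors of 0.541 to 1.197 and 14135502 to 30401422 reads per library. Of the first table's 55573 lines, 240 carry no name and were dropped (up to 0.0203% of a library), and of the second's 55421, 35 were dropped (up to 0.00719%) after 3061 were named from their identifier.

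The test was that of limma 3.58.1, run under R 4.3.3 with a trend and robust shrinkage, on log2 of the normalized count plus a pseudocount of 1, which understates changes of low genes. Genes at 10 or more in at least 3 libraries were kept, and p was two-sided and Benjamini-Hochberg adjusted over all of them with a threshold of 0.05. C57BL/6 was split by the mark 23, and all 12 libraries of the first table, or 6 of the second, shared the spread. The labels call the libraries of a group biological replicates, so p-values measure the spread between those replicates. Replicates gave chi-square values of 17.0 to 168 per gene against each other, so no library was a duplicate. On recovered reads, edgeR 4.0.16 and DESeq2 1.42.0 were alternatives. Per-library values are given for Pecam1, Cdh5, Kdr, Flt1, Tek, Erg, Plvap and Cldn5, and for the 2 members of smallest p in each comparison. Also varied were the pseudocount (0.5 or 10), the filter (none, or 50), the scaling (TMM), a replicate block, fitting the compared groups alone, dropping the term for the mark, leaving out each library, and leaving out the end libraries of the first component. The comparison with C57BL/6 replicates 4 to 6 was added after seeing the data. Positions came from GENCODE M21 and promoters from RefSeq, and Python 3.11.15, pandas 2.3.3, numpy 2.4.6 and matplotlib 3.10.9 were used.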

Additional observations from a re-analysis of the deposited data

How the results depend on the processing

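Against C57BL/6 replicates 4 to 6, chosen after seeing the data, the median over the members was −0.034 in the libraries labelled Mertk-/-V2Tyro3-/-V2, where Kdr was −0.051, Flt1 −0.10, Tek −0.0080, Erg −0.13, Plvap −0.056, Cldn5 −0.0072, Sox17 −0.24 and Ramp2 0.30. In Tyro3-/-V1 the median was 0.24, with Kdr −0.34, Flt1 −0.064, Sox17 −0.26, Sox7 0.24 and Ramp2 0.65. Each of these genes had the other sign against replicates 1 to 3. With no term for the mark the first median was 0.36, and Ramp2 in Tyro3-/-V1 was 0.17. DESeq2 called 3 members in the libraries labelled Mertk-/-V2Tyro3-/-V2, 5 in Tyro3-/-V1 and 1 between the C57BL/6 sets, where limma called 0. The cause of these differences was not tested. Leaving out 1 library at a time gave 0 to 1 called members in Tyro3-/-V1 and 0 to 1 between the C57BL/6 sets.

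Not every pair of same-numbered libraries had a correlation over 0.1, so the numbers were not taken to pair the libraries: correlations of same-numbered deviations were 0.48, −0.21 and 0.28 between the libraries labelled Mertk-/-V2Tyro3-/-V2 and C57BL/6, 0.31, −0.17 and 0.35 between Tyro3-/-V1 and C57BL/6, 0.56, 0.06 and 0.52 between the mutant groups and −0.12, −0.08 and 0.03 between Itgb5-/- and WT129. Pairs of differently numbered libraries were not set beside these. Among the pairs of the first table, replicates 1 and 3 had 0.28 to 0.56 and replicate 2 had −0.21 to 0.06. Positions on its first component also rose with replicate number within each mutant group and each C57BL/6 set. Whether libraries of the same number share a structure was not tested. The fit with the replicate block left out C57BL/6 replicates 4 to 6. There 2 members passed for the libraries labelled Mertk-/-V2Tyro3-/-V2, Kdr and Ramp2. That is 6.67% of the members against 3.86% of the 19109 genes in that fit, and the medians were 0.69, 0.86, −0.22 and 0.23. In the main fit, without the block and with all C57BL/6 libraries, 0.523% of all genes passed in that comparison, so the 2 fits differ in more than the block. Of the values with an alternative, 155 summaries stayed the same and 9 moved, and of the single genes 669 stayed the same, 9 newly passed and 14 changed sign. A summary was a count of called members, the same if unchanged, or a median over the members. A median counted as the same if it shifted by less than the SD between libraries of the members' median deviation. This rule is wide: the median of Itgb5-/- over WT129 counted as the same at 0.23 and, without Itgb5-/- replicate 1, at 0.01. With 3 libraries a group, low members such as Tal1 and Car4 are measured with few reads.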
